A study of Mus musculus with 6 samples.

Results

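The nuclear genes that encode the subunits of mitochondrial oxidative phosphorylation were examined in the calvaria, the skull roof, of newborn mice that overexpress the microRNA miR-34c. Members were all genes whose platform symbol begins with Ndufa, Ndufb, Ndufc, Ndufs, Ndufv, Sdha, Sdhb, Sdhc, Sdhd, Uqcr, Cox4 to Cox8 or Atp5, together with Cyc1 and Cycs. Assembly factors named Ndufaf or Sdhaf were left out. The rule used names only and no measured value. It found 126 probes for 81 of the 19057 named genes of an Illumina mouse bead array. They comprised 36 genes of complex I, 4 of complex II, 8 of complex III, 1 of cytochrome c, 13 of complex IV, 16 of complex V, and the 3 muscle isoforms of complex IV, Cox6a2, Cox7a1 and Cox8b, which are treated apart.

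The arrays fall into 2 groups of 3: calvaria with the genotype miR34c overexpression (TG1 to TG3), and wild-type calvaria (WT1 to WT3). All 6 come from FVB/N mice at postnatal day 3 and were hybridised as biotin-labelled total RNA from homogenised tissue. The labels describe the TG genotype as a gain of function and call the arrays biological replicates. They give neither the promoter of the transgene, nor the sex, nor whether an array holds 1 pup or several, so p-values measure the spread between these arrays. The level of the microRNA itself was not analysed here. In bulk tissue, fewer cells of a type and less RNA per cell cannot be told apart.

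The electron transport chain passes electrons from NADH at complex I and from succinate at complex II through complex III and cytochrome c to oxygen at complex IV. Complexes I, III and IV pump protons across the inner mitochondrial membrane, and complex V uses the gradient to make ATP. Most subunits are encoded in the nucleus and expressed in nearly every cell, while a few complex IV subunits have isoforms that replace the common one in heart, skeletal muscle and brown fat. In bone, osteoblasts use both glycolysis and respiration to supply matrix synthesis.

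Array medians lay between 125.1 and 132.6 units of intensity, 19680 to 21412 probes per array were detected at p < 0.05, and arrays correlated pairwise at r = 0.980 to 0.989. The headings of the control rows in the deposited table number the replicates otherwise than the sample labels do, which was not resolved. Xist, transcribed from the inactive X chromosome, had log2 levels of 4.70 on TG1, 9.17 on TG2 and 9.34 on TG3, against a WT range of 4.49 to 5.12. Kdm5d, a gene of the Y chromosome, had 7.17 on TG1, 4.69 on TG2 and 4.43 on TG3, against a WT range of 6.99 to 7.36. In both genes TG2 and TG3 thus stood apart from TG1 and the WT arrays. Sex and genotype therefore cannot be fully told apart in the differences between TG and WT. All 13 named osteoblast markers were detected well enough to be tested. Skeletal muscle markers were detected on every array as well, and their level differed between arrays within both groups, as given below beside the genes it moves with.

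The promoters of both kinds of cytochrome c oxidase subunit, ubiquitous and muscle, and of cytochrome c are shown because the data separate these genes by how far they vary between arrays. Each run holds the 250 bases upstream of the annotated start, 5′ to 3′ on the gene's own strand, from RefSeq on GRCm38.p6. Capitals mark matches to GCATGCGC, the core of the site of nuclear respiratory factor 1 (NRF1), on either strand, or to CAGCTG, an E-box of the kind bound by MYOD. Cox7a1 lies at chr7:30183921-30184170 on the plus strand and holds neither. Cox8b lies at chr7:140900447-140900696 on the minus strand and holds the E-box. Cox6a1 lies at chr5:115348959-115349208 on the minus strand and holds overlapping NRF1 matches, one on each strand. Cox7a2, the common form of the subunit that Cox7a1 replaces, lies at chr9:79759854-79760103 on the minus strand and holds neither. Cycs lies at chr6:50566570-50566819 on the minus strand and holds an NRF1 match.
Cox7a1: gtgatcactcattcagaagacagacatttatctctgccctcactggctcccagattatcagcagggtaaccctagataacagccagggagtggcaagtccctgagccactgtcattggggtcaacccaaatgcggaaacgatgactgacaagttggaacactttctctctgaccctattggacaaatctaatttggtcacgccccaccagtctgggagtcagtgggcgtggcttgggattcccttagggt
Cox8b: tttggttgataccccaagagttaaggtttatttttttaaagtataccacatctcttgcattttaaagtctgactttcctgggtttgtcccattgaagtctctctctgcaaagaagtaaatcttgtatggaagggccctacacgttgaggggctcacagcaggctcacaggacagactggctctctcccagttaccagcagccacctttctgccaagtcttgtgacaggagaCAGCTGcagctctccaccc
Cox6a1: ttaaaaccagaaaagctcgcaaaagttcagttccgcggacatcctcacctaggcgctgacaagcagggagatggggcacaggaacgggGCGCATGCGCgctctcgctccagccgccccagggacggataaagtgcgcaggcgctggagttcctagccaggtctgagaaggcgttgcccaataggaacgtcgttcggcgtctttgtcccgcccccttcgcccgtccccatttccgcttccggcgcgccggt
Cox7a2: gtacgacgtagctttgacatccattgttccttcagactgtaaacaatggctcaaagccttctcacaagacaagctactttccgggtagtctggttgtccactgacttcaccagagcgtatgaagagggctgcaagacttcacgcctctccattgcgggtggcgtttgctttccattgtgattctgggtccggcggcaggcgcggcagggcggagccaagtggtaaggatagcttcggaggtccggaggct
Cycs: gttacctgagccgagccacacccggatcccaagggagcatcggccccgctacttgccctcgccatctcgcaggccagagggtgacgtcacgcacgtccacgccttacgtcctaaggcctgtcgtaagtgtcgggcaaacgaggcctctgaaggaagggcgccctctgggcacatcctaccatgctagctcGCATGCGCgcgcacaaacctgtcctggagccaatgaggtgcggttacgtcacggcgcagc

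Promoters were at hand for 63 of the 76 tested members. Outside the muscle isoforms, 9 of 66 promoters held the NRF1 core (13.6%), against 2.26% of all 32851 promoters of the same length. The 9 belong to Atp5g2, Atp5k, Atp5l, Cox6a1, Cycs, Ndufa11, Ndufa6, Ndufa8 and Sdhb, so that Cox6a1 was the only one of the 8 complex IV genes with a promoter here, outside the muscle isoforms, to hold it. The GABPA core CCGGAAGT was in 3 of 66 (4.55%) against 2.88% of all promoters. The YY1 core AAGATGGC was in 1 of 66 (1.52%) against 1.56%. The estrogen-related receptor core TCAAGGTCA was also in 1 of 66 (1.52%), that of Atp5g3, against 0.387%. The E-box was in 4 of 66 (6.06%) against 13% of all promoters. A MEF2 match was in 0 of 66, against 2.92% of all promoters. The muscle isoforms had 2 promoters here, of which 0 held a MEF2 match and 1 held the E-box. Both strands were searched. A match is a run of letters and not a shown site, and base composition was not matched between the sets.

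No subunit gene of any complex passed the adjusted test between TG and WT calvaria. Of the 81 genes, 76 had a probe detected on at least 3 arrays and were tested, and all 76 were detected on all 6. In limma, adjusted over 20632 probes, 0 members passed an adjusted p of 0.05, as did 0% of all probes, and the smallest adjusted p on the array was 0.9997. At an unadjusted p of 0.05, 1 member passed, Ndufb4, against 2.53% of all 11204 tested genes. The difference TG minus WT was positive for 35 members and negative for 41, with a median of -0.0067 on the log2 scale, against -0.0014 over all tested genes. Outside the muscle isoforms, 71 of 73 members differed by less than 0.25 on the log2 scale. The 95% interval of the difference lay within 1.5-fold either way for 71 of these 73 and within 2-fold for all 73. The values are on the log2 scale after background subtraction, which widens the differences of dim probes, and an offset of 16, which shrinks them. The dim Ndufb4 and Atp5md differed by 0.41 and 0.30 here, against 0.14 and 0.08 in the authors' log2 values.

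**Figure D1:**
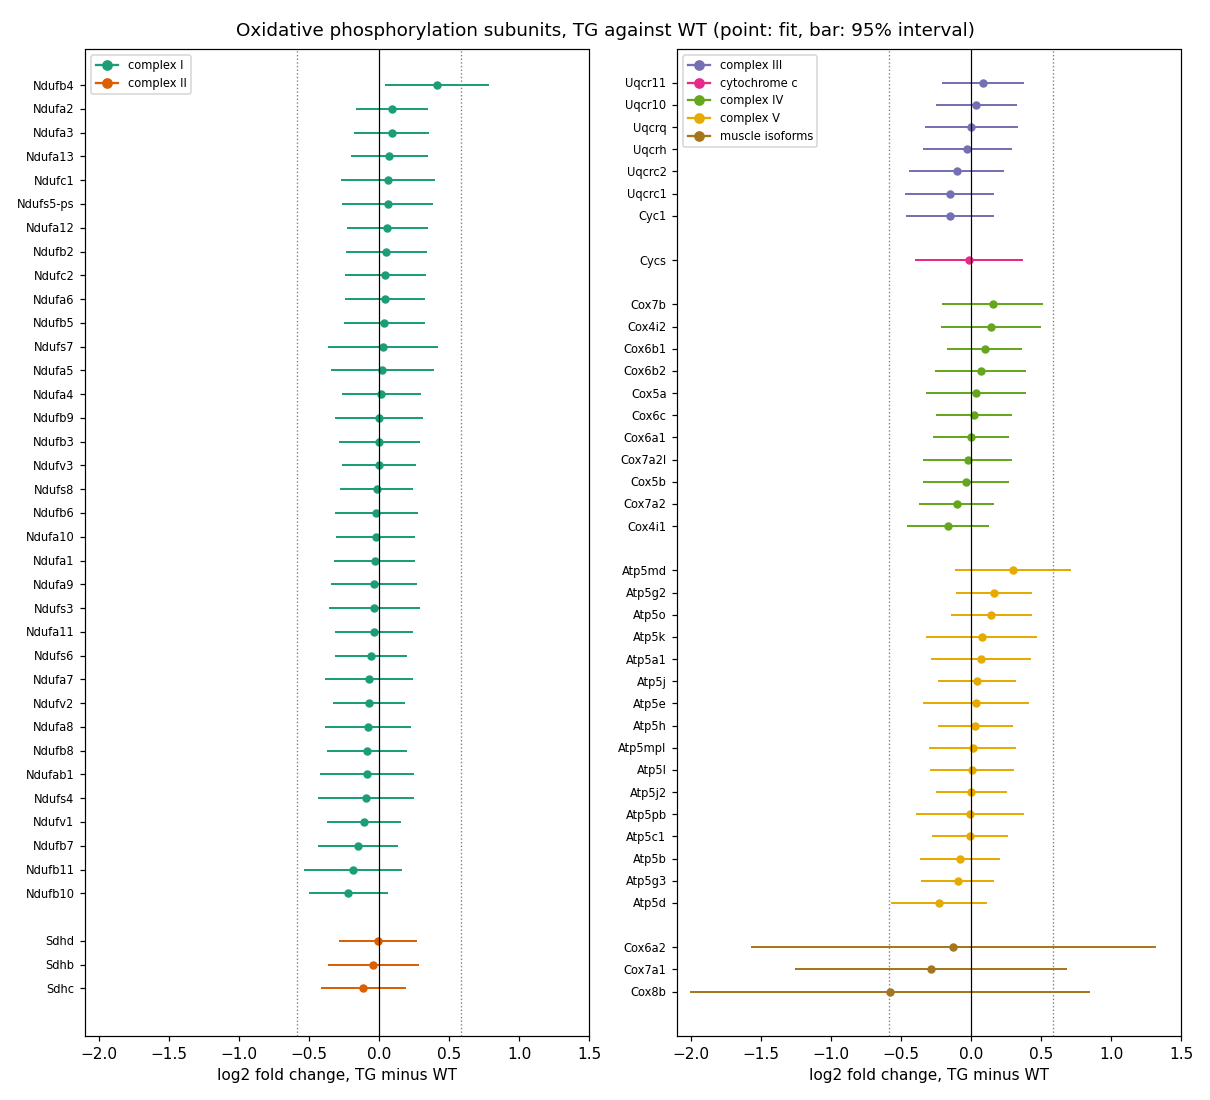
Log2 fold change TG minus WT (horizontal axis) with its 95% interval for the 76 tested subunit genes, grouped and coloured by complex; dotted lines mark 1.5-fold either way. Intervals of the 3 muscle isoforms span at least -1.25 to 0.68, and those of the other genes are a fraction of that width.

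The groups did not overlap for 3 members higher in TG (Ndufb4, Ndufa2 and Atp5g2) and 2 lower in TG (Ndufv1 and Ndufv2), against 3.34% and 3.48% of all tested genes in the 2 directions. These 5 of 76 genes are near the 6.82% of all genes whose groups do not overlap either way. The brightest members had probe intensities up to 26357.8, against an array maximum of 45967.3, so no member was near the top of the scale.

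Complex I, the NADH dehydrogenase and the entry point of most electrons, had 36 named genes, of which 35 were tested. Of these, 15 had a positive and 20 a negative difference, the median was -0.02 and the range -0.22 to 0.41 on the log2 scale. The only probe of Ndufs1, which carries iron-sulfur clusters of the complex, was below detection on every array. Its mean intensities were 123 in TG and 120 in WT calvaria.

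Ndufv1, the subunit that binds NADH and flavin, had log2 levels of 11.79, 11.92 and 11.92 in TG, against 11.95, 12.06 and 11.95 in WT calvaria. Its TG arrays all lay below the WT arrays, and the difference was -0.11 ± 0.11 (SE), with a 95% interval of -0.37 to 0.15. Ndufv2, its partner in the same module, lay at 11.59, 11.69 and 11.71 in TG and at 11.71, 11.78 and 11.73 in WT, a difference of -0.08. The 95% interval of the Ndufv2 difference was -0.33 to 0.17. Ndufa13, the brightest complex I gene, known also as GRIM-19, had 13.04, 12.90 and 12.92 in TG, against 12.88, 12.78 and 12.99 in WT, and these groups overlapped.

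Ndufb4, an accessory subunit of the membrane arm, had log2 levels of 6.69, 6.75 and 6.89 in TG, against 6.65, 6.11 and 6.33 in WT calvaria. All TG arrays lay above all WT arrays, the nearest pair by less than the spread within either group. The difference was 0.41 ± 0.16 (SE), with limma's unadjusted p at 0.0304 and adjusted p at 0.9997. The same contrast in the authors' log2 values was 0.14 and without background subtraction it was 0.18. Under all settings other than leaving out an array the difference ranged from 0.14 to 0.43.

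Ndufb10, another membrane-arm subunit, had log2 levels of 9.34, 9.52 and 9.34 in TG, against 9.68, 9.66 and 9.51 in WT. The difference was -0.22 ± 0.12 (limma, unadjusted p = 0.100), with TG2 just above WT3. Its second tested probe, dimmer at mean intensities of 230 in TG and 229 in WT, gave 0.01. The 95% intervals of the 2 probes, -0.50 to 0.05 and -0.25 to 0.26, overlap. Ndufb7 had a difference of -0.15 and Ndufb11, which was dim, of -0.19. A second Ndufb11 probe gave -0.29, but was dimmer still, at mean intensities of 135 in TG and 142 in WT. It was detected on 2 TG arrays and 3 WT arrays. In the authors' log2 values the main Ndufb11 probe gave -0.08 and the second -0.06. Ndufb11 lay at 6.85, 6.68 and 6.69 in TG and 7.15, 6.67 and 6.96 in WT, with WT2 just below the lowest TG array and WT1 and WT3 above the highest.

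Complex II, the succinate dehydrogenase shared with the citric acid cycle, had 3 of its 4 genes tested. The only probe of Sdha, the flavin-bearing subunit, was below detection on all arrays. Sdhc had an undetected probe beside its bright one, so an undetected probe does not show that a gene is silent. Sdhb, which carries its iron-sulfur clusters, had 10.07, 10.40 and 10.29 in TG, against 10.19, 10.46 and 10.24 in WT. The difference was -0.04 ± 0.14. Sdhc and Sdhd, the membrane anchors, had differences of -0.12 and -0.01. The groups overlapped for all 3.

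Complex III, the cytochrome bc1 complex, had 7 of 8 genes tested, 3 with a positive and 4 with a negative difference, median -0.03 and range -0.15 to 0.08. Uqcrfs1, the Rieske iron-sulfur protein, had 2 probes, one detected on 0 TG arrays and 2 WT arrays and the other on none, so it could not be tested. Cyc1, the cytochrome c1 subunit, had 10.52, 10.77 and 10.66 in TG, against 10.63, 10.94 and 10.84 in WT. The difference was -0.15 ± 0.13 (limma, unadjusted p = 0.280). Uqcrc1, a core protein, had -0.15 ± 0.13 and Uqcr10, the brightest gene of the complex, had 0.04 ± 0.12, with a second probe at -0.11. Cycs, the mobile electron carrier cytochrome c, had 10.18, 10.33 and 10.40 in TG, against 10.21, 10.64 and 10.10 in WT calvaria. Its highest array was WT2 and its lowest WT3, so the groups overlapped, and the difference was -0.02 ± 0.16.

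Complex IV, cytochrome c oxidase, had 11 of its 13 genes outside the muscle isoforms tested, 6 with a positive and 5 with a negative difference, median 0.02 and range -0.17 to 0.15. Cox4i1, the common form of the regulatory subunit 4, had 12.94, 12.91 and 12.98 in TG, against 12.94, 13.26 and 13.13 in WT. The difference was -0.17 ± 0.12 (limma, unadjusted p = 0.219), and WT1 lay among the TG arrays. Cox4i2, the form known from lung and from cells low in oxygen, was near the lower end of the scale and differed by 0.14 ± 0.15. Cox5b had a difference of -0.04 and the dim Cox7b one of 0.15. Cox6b2, Cox7b2 and Cox8c are isoforms known from testis; Cox6b2 differed by 0.07 ± 0.14, and Cox7b2 and Cox8c were below detection on every array. Ndufa4, counted with complex I by its name although it is now regarded as a subunit of complex IV, differed by 0.01.

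Complex V, the ATP synthase, had all 16 genes tested, 11 with a positive and 5 with a negative difference, median 0.02 and range -0.23 to 0.30. Atp5b, the catalytic beta subunit and the brightest member, had 14.31, 14.56 and 14.34 in TG, against 14.45, 14.56 and 14.44 in WT. The difference was -0.08 ± 0.12. Atp5a1, the alpha subunit, differed by 0.07 ± 0.15. Atp5d, the delta subunit of the F1 stalk, had 10.81, 11.17 and 11.004 in TG, against 11.04, 11.27 and 11.38 in WT, a difference of -0.23 ± 0.15 (limma, unadjusted p = 0.153). Atp5g2, which encodes the membrane ring subunit c, had 9.58, 9.48 and 9.35 in TG, against 9.28, 9.31 and 9.33 in WT, a difference of 0.16 ± 0.12. TG3 was above the highest WT array by only a small margin. Atp5md, a small membrane subunit, was dim and differed by 0.30 ± 0.18, and Atp5o differed by 0.14 with other probes at -0.08 and -0.07.

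**Figure D2:**
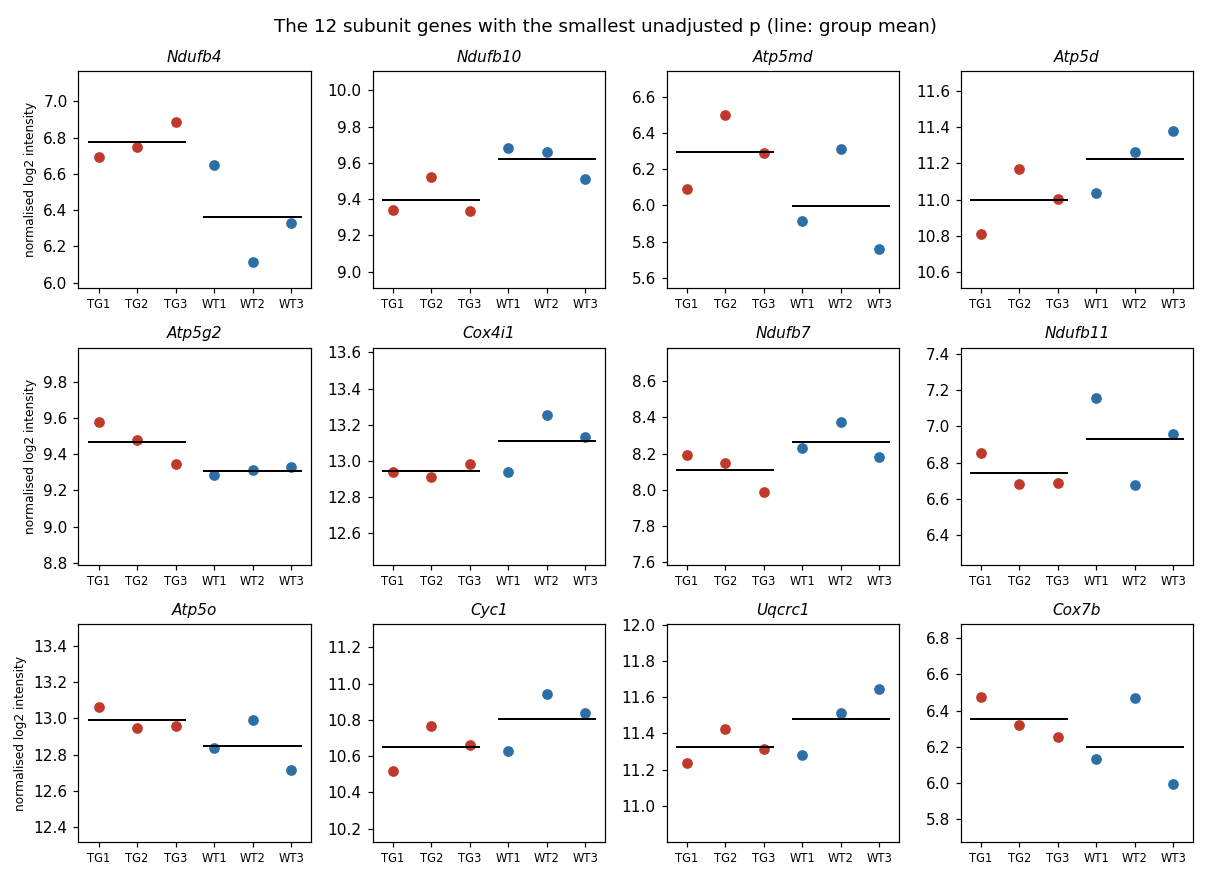
Normalised log2 intensity (vertical axis, each panel spanning 1.2 units) on the 3 TG arrays (red, left) and the 3 WT arrays (blue, right) for the 12 subunit genes with the smallest unadjusted p, with lines at group means. The groups separate fully only for Ndufb4 and Atp5g2, and no gene passed the adjusted threshold.

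The 3 muscle isoforms varied far more between arrays than the other members, within both groups. Cox6a2, the heart and muscle form of subunit 6a, had intensities of 525.1, 1766.0 and 1693.4 on the TG arrays, against 779.6, 2803.2 and 895.5 on the WT arrays. TG1 was the lowest array and WT2 the highest, and the groups overlapped. The difference was -0.13 ± 0.62 on the log2 scale, with a 95% interval of -1.57 to 1.31 and limma's unadjusted p at 0.844.

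Cox7a1, the heart and muscle form of subunit 7a, had intensities of 200.1, 310.6 and 336.3 in TG, against 234.9, 504.0 and 265.0 in WT. The difference was -0.29 ± 0.42, with a 95% interval of -1.25 to 0.68. Cox8b, the muscle form of subunit 8, had 275.1, 636.3 and 663.4 in TG, against 348.3, 1401.6 and 633.5 in WT. The difference was -0.58 ± 0.62, with a 95% interval of -2.00 to 0.84. TG1 was lowest and WT2 highest in all 3 isoforms, and the brightest isoform array lay at 5.34 times the dimmest for Cox6a2 and 2.52 times for Cox7a1. Without TG1 the difference of Cox6a2 was 0.53 and that of Cox7a1 0.10, and without WT2 they were 0.42 and 0.11, so that the sign of these 2 genes rests on single arrays. Cox8b stayed negative whichever array was left out, but its difference ranged from -1.17 without WT1 to -0.03 without TG1 and was -0.05 without WT2. The common forms of the same subunits in other tissues, Cox6a1 and Cox7a2, spanned 0.21 and 0.23 on the log2 scale over the 6 arrays and differed by -0.00 and -0.11 between the groups. A second, nearly as bright probe of Cox6a1 spanned 0.35 and differed by 0.14.

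The range over the 6 arrays had a median of 2.55 on the log2 scale for the muscle isoforms and 0.31 for the other 73 members, against 0.46 over all genes. Skeletal muscle markers moved with the isoforms. The mean log2 level of the 33 tested markers relative to the 6-array mean was -1.32, 0.67 and 0.38 on TG1, TG2 and TG3, against -0.65, 1.08 and -0.16 on WT1, WT2 and WT3, and 32 of 33 were highest on WT2 and 28 of 33 lowest on TG1. Summed marker intensity was 59579 to 183582 on the TG arrays, against 98464 to 262468 on the WT arrays. The muscle isoforms gave -1.24, 0.43 and 0.30 in TG, against -0.70, 1.15 and 0.04 in WT. Muscle markers and the isoforms share the arrays, and with the muscle marker level as a covariate the isoform differences were 0.07 ± 0.12 for Cox6a2, -0.16 ± 0.13 for Cox7a1 and -0.40 ± 0.21 for Cox8b. This covariate was chosen after seeing the data. With the mean level of Y-linked genes as a covariate, the median of the 3 isoforms was -1.91, against -0.29 without it. The Y-linked level was 6.27 on TG1, 4.92 on TG2 and 4.78 on TG3, against 6.37 to 6.72 on the WT arrays. The covariate thus nearly sets TG2 and TG3 apart, and the value of -1.91 rests largely on TG1, the lowest array in all 3 isoforms. Brown adipocyte markers, another tissue in which these isoforms are known, were tested for 5 of 12 genes, and Ucp1 was detected on no array. The 5 gave -0.36, 0.08 and -0.00 in TG, against -0.44, 0.71 and 0.02 in WT. Of these, 4 were highest on WT2, with Cpt1b, the brightest of the 5, spanning 2.20 over the 6 arrays. Cpt1b had 7.28, 8.57 and 8.40 in TG, against 7.09, 9.29 and 8.25 in WT. Whether its signal came from brown fat or from muscle was not tested. Adipoq, Cidea and Ppargc1a were dim. Prdm16 went the other way, higher on all TG arrays than on all WT arrays, by 0.24.

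**Figure D3:**
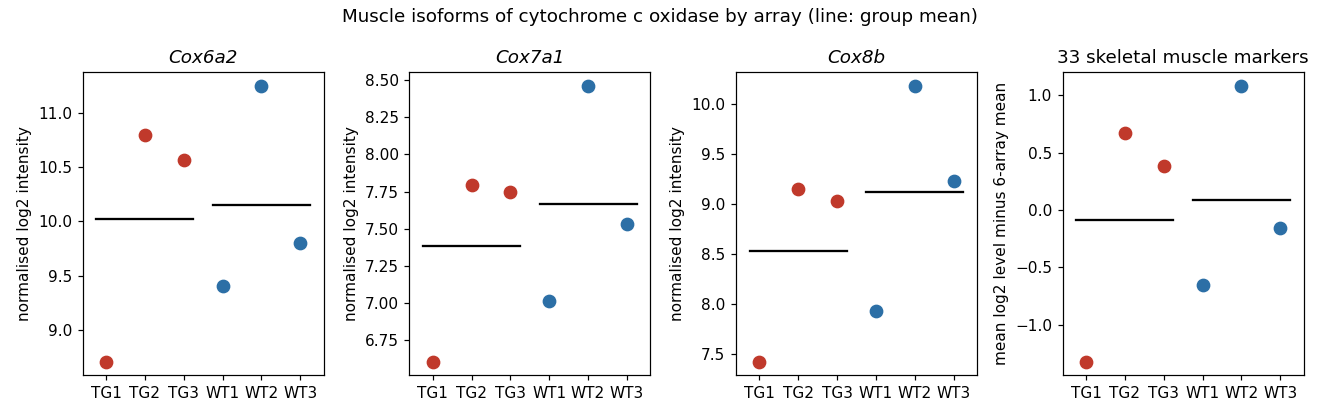
Normalised log2 intensity of Cox6a2, Cox7a1 and Cox8b, and the mean level of 33 skeletal muscle markers relative to the 6-array mean, on the TG arrays (red, left) and WT arrays (blue, right), with lines at group means. TG1 is lowest and WT2 highest in all 4 panels, and the 2 groups overlap in each.

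The other complexes moved little between arrays. Markers of other cell types varied between arrays too, given here as mean log2 levels relative to their 6-array mean. The 11 neutrophil markers averaged -1.05, 0.21 and 0.09 in TG, against 0.51, -0.03 and 0.27 in WT, and all 11 were lowest on TG1, as were most muscle markers. The 5 erythroid markers averaged -0.12, -0.37 and -0.24 in TG, against 0.37, 0.62 and -0.26 in WT. Their mean was highest on WT2, as were the means of the muscle and brown adipocyte lists. The 15 chondrocyte markers averaged -0.24, 0.83 and 0.11 in TG, against 0.14, -0.12 and -0.72 in WT, and the 13 osteoblast markers 0.07, -0.12 and -0.13 in TG, against 0.18, -0.07 and 0.07 in WT. The part of these cell types in the subunit levels was not tested. Complex I averaged -0.03, 0.04 and -0.02 relative to its 6-array mean in TG, against -0.05, 0.08 and -0.01 in WT, and complex V averaged -0.04, 0.05 and 0.04 in TG, against -0.05, 0.08 and -0.08 in WT. Complex IV lay at 0.03, 0.01 and -0.01 in TG, against -0.07, 0.09 and -0.05 in WT. Complex III lay at -0.08, 0.00 and 0.01 in TG, against -0.01, 0.09 and -0.01 in WT. Complex II spread most, at -0.17, 0.06 and 0.03 in TG, against -0.10, 0.11 and 0.08 in WT. It is a mean over only 3 genes, against 35 for complex I and 16 for complex V. Gene by gene its median range over the 6 arrays was 0.35, against 0.41 for complex III and 0.35 for complex IV. WT2 was the highest array in each of the 5 complexes, and it held the highest value of 31 of the 73 members outside the muscle isoforms (42.5%), against 15.7% of all genes. TG1 held the lowest value of 21 (28.8%), against 15.7% of all genes. WT3 held that of 18 (24.7%), against 17.1%, and WT1 that of 16 (21.9%), against 14.8%. WT2 was also the array with the most muscle marker signal and TG1 the one with the least. The mean level over the 73 members, however, was lowest on WT1 (-0.05) and not on TG1 (-0.04). Complex IV was higher on TG1 than on every array other than WT2. With the muscle marker level as a covariate, the median difference over the 76 members was 0.0011, against -0.0067 without it.

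**Figure D4:**
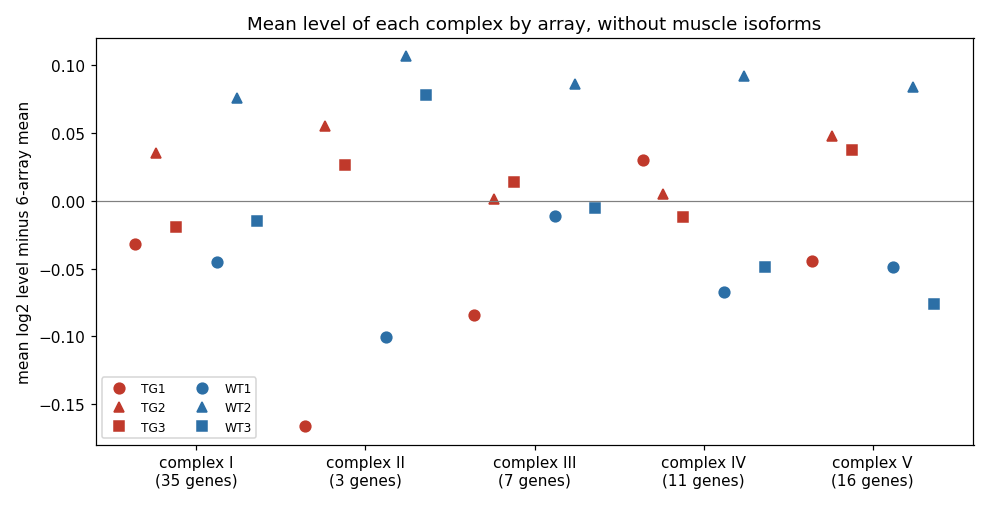
Mean log2 level of each complex minus its 6-array mean (vertical axis), without the muscle isoforms, for each TG array (red, left of each group) and WT array (blue, right); circles, triangles and squares are replicates 1, 2 and 3. Complex II, a mean over only 3 genes, has the widest spread, -0.17 to 0.11, and the TG and WT arrays overlap in every complex.

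Within the 73 members outside the muscle isoforms, 63 spanned less than 0.5 on the log2 scale over the 6 arrays. The narrowest was Atp5j2, a membrane subunit of complex V, at 12.84, 12.83 and 12.79 in TG, against 12.77, 12.88 and 12.80 in WT calvaria, a span of 0.11. Ndufs8, an iron-sulfur subunit of complex I, spanned 0.13 and Ndufv3 spanned 0.14. The widest were the dim Ndufb4 at 0.78 and Atp5md at 0.74, followed by Atp5pb, the peripheral stalk subunit b, at 0.58.

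The authors' own log2 values gave the same sign for 74 of the 76 members. The median difference in them was -0.02 for complex I, -0.04 for complex II, -0.03 for complex III, 0.02 for complex IV, 0.01 for complex V and -0.15 for the muscle isoforms. For the 59 members with a mean log2 level above 9, the 2 sets of differences lay within 0.041 of each other.

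Among the 25 members with more than 1 tested probe, 11 had the same sign of difference in all probes. Atp5pb had 4 tested probes, of which the brightest lay at -0.01 and the next brightest at -0.02. Its dimmest, with mean intensities of 141 in TG and 132 in WT and detected on 1 WT array, lay at 0.32. Ndufb6 had a dimmer probe at 0.31 while its brightest lay at -0.02. Ndufab1, the mitochondrial acyl carrier protein, had probes from -0.30 to 0.06. None of these probes passed the adjusted threshold. Ndufs5-ps carries the symbol of a pseudogene, and transcripts of the functional gene may bind its probe, so its difference of 0.06 is uncertain.

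**Figure D5:**
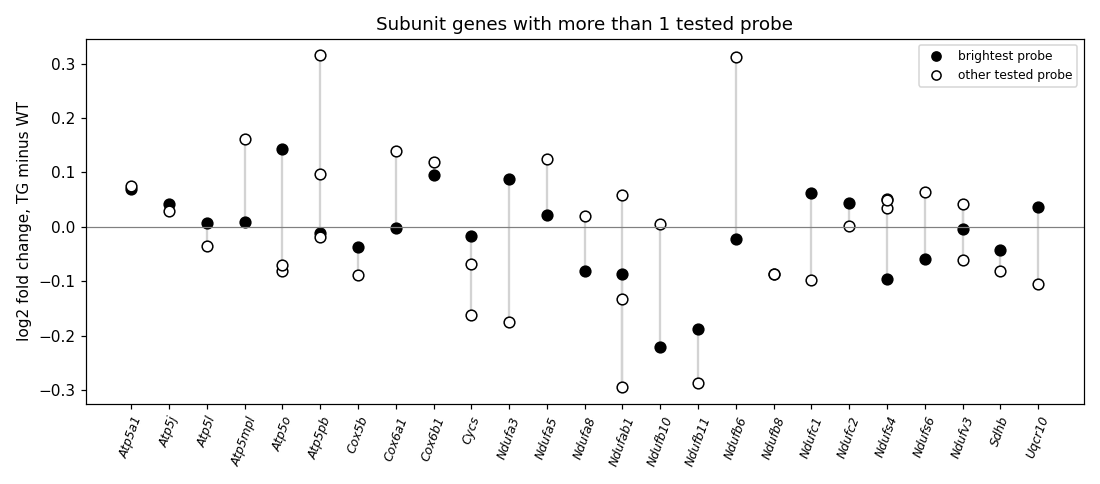
Log2 fold change TG minus WT for each tested probe of the 25 subunit genes with more than 1 tested probe; filled points are the brightest probe of the gene. The widest spread of probes is in Ndufab1 (-0.30 to 0.06), and 14 genes have probes on both sides of 0.

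Other mitochondrial gene lists, chosen with earlier results of these data known, had 0 genes past the adjusted threshold in limma and 0 at an unadjusted p of 0.05. Assembly factors of the complexes had 21 positive and 22 negative differences among 43 tested of 49 named, with a median of -0.01. Ndufaf7, a methyltransferase needed for complex I assembly, had 7.24, 7.10 and 7.19 in TG, against 7.45, 7.49 and 7.25 in WT, a difference of -0.22. The TG arrays all lay below the WT arrays. Timmdc1, another complex I assembly factor, differed by 0.20, and Sdhaf4, which acts on complex II, by 0.16, and for both all TG arrays lay above all WT arrays. In the whole list the groups did not overlap for 3 genes higher and 2 lower in TG (11.6%), against 6.82% of all tested genes.

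Regulators of mitochondrial biogenesis had 7 positive and 16 negative differences among 23 tested of 25, with a median of -0.07. Gabpb1, a subunit of the GABP factor named above, had 6.76, 7.14 and 6.87 in TG, against 6.78, 6.62 and 6.61 in WT, a difference of 0.25. Esrrb was detected on 1 TG and 2 WT arrays and differed by -0.38, and Twnk, the mitochondrial helicase, differed by -0.20. Nrf1, which encodes the factor whose core was searched in the promoters, had 9.25, 9.07 and 9.02 in TG, against 9.21, 8.85 and 9.28 in WT. Citric acid cycle genes had 5 positive and 10 negative differences among 15 of 18, median -0.02, and Idh3a, a subunit of isocitrate dehydrogenase, differed by -0.26, Dlat, of the pyruvate dehydrogenase complex, by -0.22 and Fh1, fumarate hydratase, by -0.16. Genes of protein import and cristae had 11 positive and 10 negative among 21 of 25, median 0.01, with the import channel subunit Timm17b at -0.30, the fusion protein Mfn1 at -0.19 and the chaperone Hspd1 at 0.14.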

How the data were processed

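Total RNA of 3 TG and 3 WT calvarial samples was measured on Illumina bead arrays. The authors deposited a linear intensity per probe and array, not background-subtracted, with its detection p-value. They also deposited a table of log2 values made with lumi, per the submitters' processing notes, of unstated version and normalisation. Intensities were corrected with normexp on 936 negative controls (limma 3.58.1, R 4.3.3, offset 16), set to log2 and quantile normalised over probes. Probes with detection p under 0.05 on at least 3 of 6 arrays were kept (20632). TG minus WT was tested with limma's lmFit and eBayes without a block, with Benjamini-Hochberg adjustment over all probes and a threshold of 0.05. The brightest tested probe stood for a gene. The negative controls were taken to be the last 936 of 974 unnamed control rows, from which the deposited detection p-values could be recomputed to within 0.00695. The fit was tested on simulated data. The number of arrays limits the precision. Members and lists were chosen with earlier results of these data known. Named genes were the 12 members with the smallest p, the muscle isoforms with their counterparts, the brightest gene of each complex, catalytic or electron-carrying genes, tissue-restricted isoforms, and up to 3 genes of each other list; Ndufa2, Ndufv2, Ndufa4, Ndufs5-ps, Sdhd, Atp5pb, Atp5j2, Ndufs8, Ndufv3, Ndufb6, Ndufab1 and Nrf1 were added after values were seen. Same-numbered arrays correlated at 0.26, 0.15 and -0.17 in their deviations, so numbers were not taken as pairs. Alternatives were the authors' log2 values, other background, offset, normalisation and filters, probe means, covariates and each array left out. Promoter searches used RefSeq tables of GRCm38.p6. Not analysed here: Cox8a, Ndufa4l2 and the mature miR-34c-5p.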

Additional observations from a re-analysis of the deposited data

How the results depend on the processing

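In every setting 0 subunit genes passed the adjusted threshold. Without TG replicate 1, 2 of all probes passed and neither is a member. The sign of the difference matched for 72 to 76 of the 76 members under another background, offset, normalisation or filter, for 66 with the mean of probes, 69 with the skeletal muscle covariate (chosen after seeing the data), 56 with the Y-linked covariate and 56 to 65 when one array was left out. With a replicate block, all fold changes were unchanged, 789 rather than 710 of all probes had unadjusted p under 0.05, and no call changed. Counted by probe rather than by gene, median scaling gave 6 of 110 tested member probes lower in TG without overlap, against 3 in the main fit. Leaving out one array gave 4 to 14 member probes higher and 5 to 16 lower. Smaller groups separate more easily, and the share over all probes was not computed in these settings. These counts are therefore not read as a result about the members. The Y-linked covariate gave medians of -0.293 for complex II, -0.132 for complex III, -1.91 for muscle isoforms and -0.0804 for complex V, and Ndufb11 0.0114, Cox6a1 0.128 and Atp5a1 -0.250. With this covariate the differences rest largely on TG1 against WT, since TG2 and TG3 held the lowest Y-linked levels. The mean of probes gave Atp5o -0.00296, Cox6a1 0.0688 and Uqcr10 -0.0347. The muscle covariate gave Cox6a2 0.0654 and Cycs 0.0135. The complex III median ranged from -0.0879 to 0.00805 when one array was left out. Leaving out one array also turned Cox6a2 (-0.516 to 0.533), Cox7a1 (-0.615 to 0.109), Cox6a1 (-0.058 to 0.045), Uqcr10 (-0.026 to 0.088), Cycs (-0.128 to 0.146), Sdhb (-0.117 to 0.052), Cox5b (-0.134 to 0.011), Atp5a1 (-0.033 to 0.182) and Cox6b2 (-0.033 to 0.149). The cause was not tested.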
